A study of Mus musculus with 6 samples.

Results

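Genes that make, cut or bind hyaluronan were followed through sorted stromal cells of the mouse intestine. The members, taken by their symbols from the gene table of the deposited matrices, were 10 of 33697 measured genes: the synthases Has1, Has2 and Has3, the breakdown genes Hyal1, Hyal2 and Cemip, the hyaluronan-binding secreted protein gene Tnfaip6, and the receptors Cd44, Lyve1 and Stab2. Lamina propria cells were taken from Flare-TSLP mice on a C57BL/6 background, in which a single targeted embryonic stem cell clone gave an allele with an IRES and tdTomato (a red fluorescent protein) behind the Tslp coding sequence and loxP sites in the locus. Females and males of 8 to 12 weeks of age were pooled in the experiments. Every library holds cells sorted as live and tdTomato+, so no reporter-negative sort and no other genotype serves as a control. Of the 6 droplet libraries, 2 held cells of the proximal small intestine (proximal jejunum) and 2 of the distal small intestine (distal ileum), and the large bowel gave 1 library of cecum and 1 of large intestine. Each library carried 3 antibody hashtags, which mark pooled cell samples, but hashtags are not paired with mice in the sources used here. A library was therefore counted as 1 sample, and p-values measure the spread between libraries only. In the large bowel contrasts this spread also holds any difference between cecum and large intestine and between the small intestinal regions. Neither the cecum nor the large intestine has a replicate.

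Hyaluronan is a long, unbranched sugar polymer of the extracellular matrix. Synthases in the plasma membrane build it from UDP-glucuronic acid and UDP-N-acetylglucosamine and push it out of the cell, where proteoglycans such as versican and the heavy chains that the Tnfaip6 product (TSG-6) transfers bind to it. The polymer is cut at the cell surface and in lysosomes, or drains with lymph, and is taken up by endothelial receptors such as Stab2, while Lyve1 is a receptor of lymphatic vessels and CD44 the widespread receptor of leukocytes and mesenchymal cells.

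Cells were assigned to classes by marker genes, none of which was a member. After filters and removal of cells with several hashtags 91122 cells were left, of which 86512 (94.9%) met a marker gate. Fibroblast-like cells were the most frequent class (68035 cells), followed by lymphatic endothelial cells (LEC-like, 14332 cells) and blood endothelial-like cells (1242 cells). Among the fibroblast-like cells, 6390 carried markers of subepithelial myofibroblasts (SEMF-like, led by Wnt4, Cxcl14 and Agt), 18516 of crypt-associated trophocytes (led by Grem1 and Ackr4) and 2260 of universal fibroblasts (led by Pi16 and Has1), 13824 were Adamdec1+ and 24105 met none of these gates (remaining fibroblast-like). SEMF-like cells with markers of villus tip telocytes were kept apart, 334 in the small intestine (VTT-like) and 2606 in the large bowel (telocyte-marker SEMF-like). The gates are ranges and not sharp types, since 57.0% of the trophocyte-like and 50.1% of the universal fibroblast-like cells lay near the limit of their gate. UMIs, the tags that mark single captured transcripts, totaled 109675337 (cecum) to 206827504 (proximal replicate 2) per library, with a median of 6590 to 9162 per cell. Libraries shared 38 to 118 cell barcodes, at most 0.609% of the smaller library. tdTomato itself gave only 301 to 1081 UMIs per library, so the sort was not checked cell by cell. The study also removed cell clusters with hardly any tdTomato+ cells, a step not applied here. In the small intestine it saw no tdTomato+ epithelial cells, and its rare tdTomato+ cells with the leukocyte marker CD45 were endothelial. The leukocyte-like and epithelial-like classes may therefore hold reporter-negative cells.

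The make-up of the fibroblast-like cells differed between the bowel parts. The cecum gave 1465 and the large intestine 473 universal fibroblast-like cells, against 45 to 117 in a small intestinal library, whereas trophocyte-like cells numbered 173 and 318 against 3075 to 6103. The cecum also stood apart in its 10 immediate early genes (Fos, Jun, Egr1 and others that respond within minutes to stimulation and tissue handling), whose summed level in fibroblast-like cells was 23280 CPM there (UMIs of a gene per 1000000 UMIs summed over the class) and 6001 to 9695 in the other 5 libraries. Free RNA, read from barcodes with at most 100 UMIs, held 2.90 to 3.82% of a library's UMIs. Its level is given below for Has1, Has3, Hyal2, Tnfaip6, Cd44, Lyve1 and Stab2, and not for Has2, Hyal1 and Cemip. Marker calls took 5% and the subtraction 10% of the UMIs as free RNA. A class under the free RNA level can therefore still carry transcripts of its own, and the share of free RNA in cells was not measured.

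The genes lie on 7 chromosomes of GRCm39, and the positions bear on how their reads can be assigned. Has1 (17:18063585-18075467, minus strand), Has2 (15:56528342-56557999, minus strand) and Has3 (8:107596874-107611198, plus strand) are unlinked, and Has2 lies opposite the noncoding Has2os, Has3 opposite Derpc and Chtf8. Hyal2 (9:107445086-107450171, plus strand) and Hyal1 (9:107454126-107458909, plus strand) are neighbours, and Hyal1 overlaps Naa80 and Hyal3 on its own strand, so its low counts are uncertain. Tnfaip6 (2:51927998-51946698, plus strand) and Cd44 (2:102641486-102732010, minus strand) share a chromosome, as do Cemip (7:83582065-83735724, minus strand) and Lyve1 (7:110448585-110462460, minus strand), and Stab2 lies at 10:86675054-86843889 on the minus strand.

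Over the 76 sums of UMIs per library and cell class, of 16 classes, the patterns of Has1 and Tnfaip6 were the second most alike of any pair of members (Pearson's r 0.76 on log2 levels), after Lyve1 and Stab2 (0.791). Among all genes compared, Has1 and Tnfaip6 each had closer partners, as given below. The 250 bases before the start sites of Has1 and Tnfaip6 are shown for their rank among the members. RefSeq promoters on GRCm38.p6 were found for 7 of the 10 members. Capitals mark a cyclic AMP response element (CRE, TGACGTCA) 83 bases before the start of Has1 and an AP-1 motif (TGANTCA, here TGAGTCA) 142 bases before the start of Tnfaip6.
Has1, chr17:17855189-17855438, minus strand: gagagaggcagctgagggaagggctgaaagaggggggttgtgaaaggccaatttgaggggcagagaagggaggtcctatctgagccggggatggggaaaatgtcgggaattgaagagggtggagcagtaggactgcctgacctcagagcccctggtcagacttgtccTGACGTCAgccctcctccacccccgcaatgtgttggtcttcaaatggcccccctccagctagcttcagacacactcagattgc
Tnfaip6, chr2:52037863-52038112, plus strand: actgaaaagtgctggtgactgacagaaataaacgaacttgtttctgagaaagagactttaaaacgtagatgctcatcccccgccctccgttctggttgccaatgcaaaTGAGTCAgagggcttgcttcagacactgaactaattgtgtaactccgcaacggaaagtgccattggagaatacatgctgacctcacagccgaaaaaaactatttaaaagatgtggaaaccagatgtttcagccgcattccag
Both strands were searched for 5 motifs in 32851 promoters of this length. The CRE was found in 1.55% of them and the AP-1 motif in 6.75%. Of the other 5 members found, Cemip had a TATA box (TATAAA, 12.4% of promoters) 29 bases before its start and Hyal2 an NF-kB site (3.90%) 238 bases before its start, while Cd44, Hyal1 and Stab2 had none of the 5 motifs (the fifth, the CArG box, was in 1.47%). A match says only that these letters stand in the window.

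**Figure D1:**
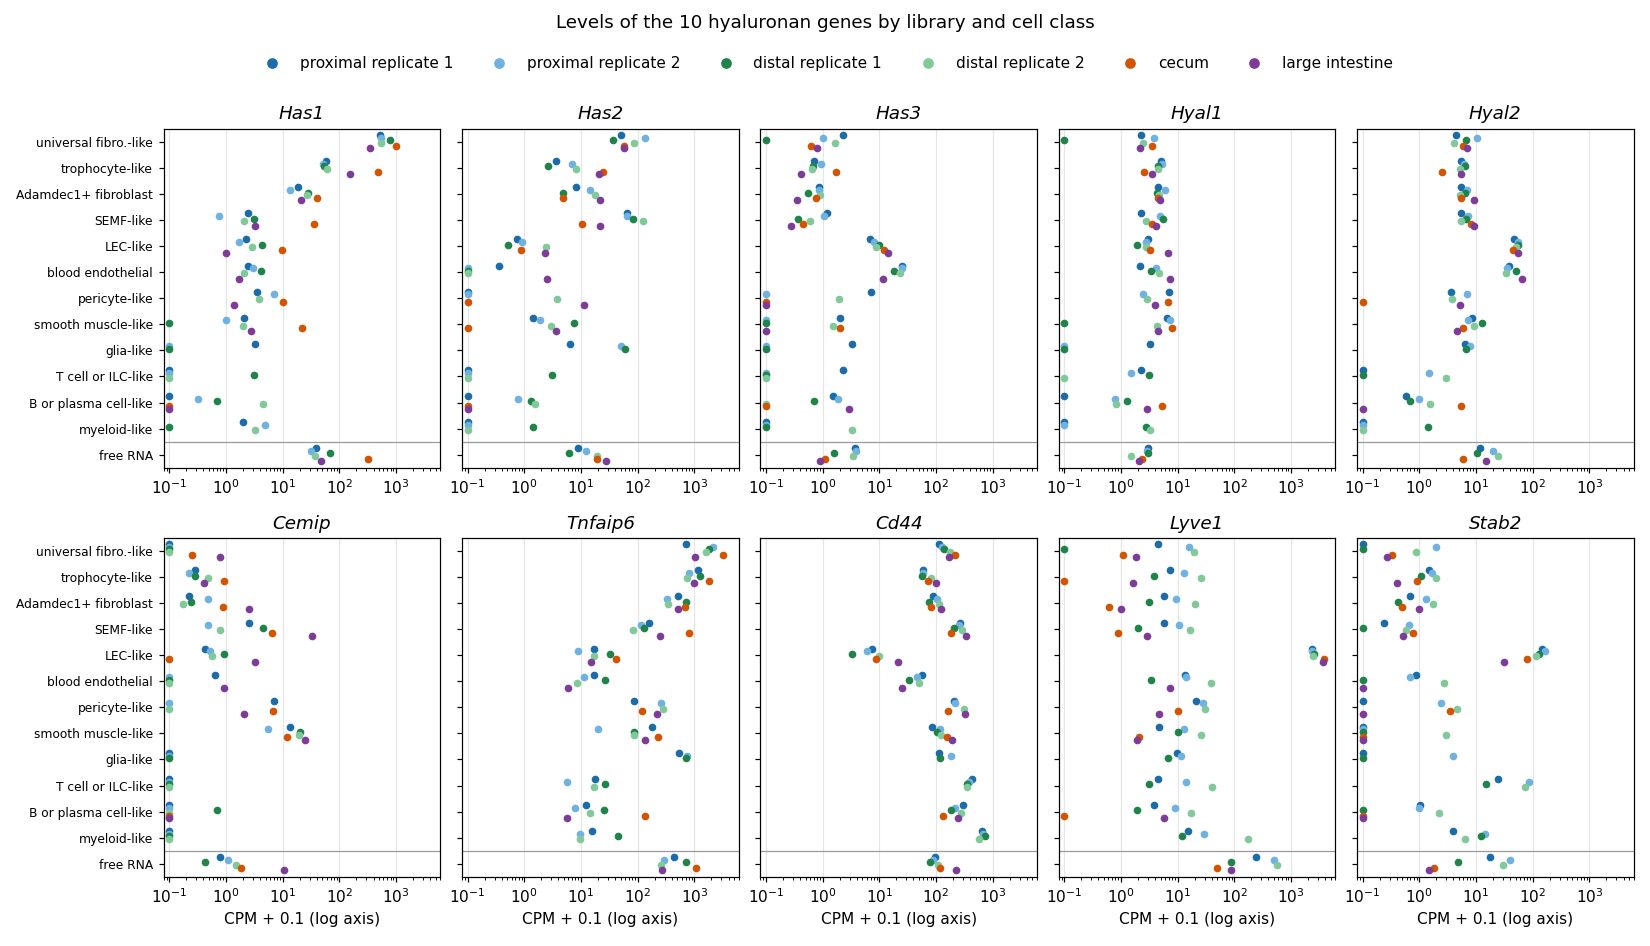
Level of each hyaluronan gene (CPM plus 0.1, log axis) in each cell class, with 1 point per library and the free RNA of each library in the lowest row. Has1 and Tnfaip6 lay highest in fibroblast classes, Has2 in universal fibroblast-like and SEMF-like cells, Has3 and Hyal2 in endothelial classes, and Lyve1 and Stab2 in LEC-like cells.

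Has1 was a gene of universal fibroblast-like cells. Its level there was 510 and 538 CPM in proximal replicates 1 and 2, 769 and 533 in distal replicates 1 and 2, 982 in the cecal and 347 in the large intestinal library. Trophocyte-like cells held 57.6, 51.3, 54.1, 59.6, 482 and 154 in the same order, and SEMF-like cells 2.34, 0.664, 2.97, 1.96, 35.6 and 3.16. In each library the universal fibroblast-like cells were thus above the trophocyte-like and these above the SEMF-like cells, and the cecum was the highest library in all 3 classes. Over all libraries, however, the ranges of neighbouring classes in the order universal (613 ± 225, SD, n = 6), trophocyte-like (143 ± 171), remaining (129 ± 101) and Adamdec1+ fibroblasts (24.6 ± 9.21) overlapped except for the last step. When each cell was thinned to 2500 UMIs, 25.8 to 59.0% of universal fibroblast-like cells had a Has1 UMI, against 6.10 to 33.0% of trophocyte-like, 0.217 to 4.85% of SEMF-like and 0.00 to 2.16% of LEC-like cells. LEC-like cells, which stand here for a type that should lack the gene, had 0.889 to 9.46 CPM, below the free RNA (31.8 to 317). The SEMF-like level also lay below the free RNA in every library.

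Has2, the synthase required for embryonic heart development, was placed differently from Has1. SEMF-like cells held 63.8 and 63.6 CPM in the proximal, 80.9 and 122 in the distal, 10.2 in the cecum and 21.8 in the large intestinal library. The small intestinal libraries were thus all above the large bowel libraries. Universal fibroblast-like cells held 49.95, 133, 37.1, 85.3, 57.9 and 58.3, with no such order. Trophocyte-like cells held 3.47, 6.74, 2.47, 7.92, 24.5 and 20.8, and here the large bowel libraries were the high ones. Telocyte-marker SEMF-like cells of the large bowel held 44.6 (cecum) and 72.6 (large intestine), more than the other SEMF-like cells of the same library, and VTT-like cells held 41.3, 49.7, 16.9 and 96.0. The first 5 classes by mean (universal fibroblast-like 70.2 ± 34.5, SEMF-like 60.5 ± 40.8, both SD, n = 6, then telocyte-marker, VTT-like and glia-like) each overlapped the next, and the glia-like mean rests on 24 UMIs. After thinning, 1.87 to 23.1% of SEMF-like and 0.557 to 3.47% of trophocyte-like cells had a Has2 UMI. LEC-like cells had 0.00 to 0.433%. The Has2 level of LEC-like cells, and that of trophocyte-like cells in the small intestine, lay under the free RNA.

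Has3 was an endothelial gene in these data and a rare one. Blood endothelial-like cells held 24.8, 25.3, 17.8 and 23.0 CPM in the small intestinal libraries and 11.4 in the large intestine (the cecum had 17 such cells, too few for a level). LEC-like cells held 6.66, 7.83, 9.59, 8.69, 11.8 and 14.2, below the blood endothelial-like level in the small intestine and above it in the large intestine. Fibroblast-like cells held 0.36 to 0.79, below the free RNA (0.806 to 3.71) in each library. Only 3.88 to 6.90% of blood endothelial-like and 1.51 to 4.69% of LEC-like cells had a UMI after thinning.

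The breakdown genes were low throughout, and only Hyal2 had a clear place. Hyal2, which encodes a membrane-anchored hyaluronidase, held 46.1, 54.0, 55.9, 50.6, 44.1 and 54.2 CPM in LEC-like cells, with a small spread between libraries (50.8 ± 4.79, SD, n = 6), and 34.2 to 64.5 in blood endothelial-like cells, and the ranges of both endothelial classes overlapped. Fibroblast-like cells held 5.23 to 9.48, under the free RNA in 5 of 6 libraries (5.91 to 24.8 over all libraries). Hyal1, the lysosomal hyaluronidase, held 3.75 to 5.32 in fibroblast-like and 1.84 to 6.67 in LEC-like cells, and no class stood out. Cemip, whose product binds hyaluronan and is needed for its depolymerization by fibroblasts, held 13.6, 5.46, 19.9, 19.7, 11.7 and 25.1 in smooth muscle or myofibroblast-like cells. In SEMF-like cells the large intestine (32.5) lay above the cecum (6.47) and the small intestine (0.379 to 4.32). These levels rest on few cells, since 136 of 6390 SEMF-like cells had a UMI, with up to 49 in a cell. Among telocyte-marker cells 116 of 2606 had a UMI, with up to 108 in a cell. No Cemip UMI was found in universal fibroblast-like cells of the small intestine, and the large bowel held 0.15 and 0.69 there.

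Tnfaip6 was found in more fibroblast-like cells than any other member, 41894 of 68035 against 32656 for Cd44, but Cd44 was found in more of the SEMF-like (5045 against 2762 of 6390), VTT-like (257 against 122 of 334) and telocyte-marker cells (2272 against 527 of 2606). Universal fibroblast-like cells held 712, 2150, 1796, 1598, 3243 and 1008 CPM, trophocyte-like cells 1166, 806, 1235, 744, 1824 and 1002, Adamdec1+ fibroblasts 516, 328, 708, 336, 678 and 516, and SEMF-like cells 157, 114, 129, 83.8, 792 and 247. SEMF-like cells were below trophocyte-like cells in each library, while universal fibroblast-like cells were above them in all but proximal replicate 1, where 45 cells were measured. The cecum was the highest library in universal fibroblast-like, trophocyte-like and SEMF-like cells. After thinning, 44.6 to 71.7% of trophocyte-like and 13.9 to 42.4% of SEMF-like cells had a Tnfaip6 UMI, against 1.17 to 11.3% of LEC-like cells, whose level (8.79 to 41.8 CPM) lay far below the free RNA (259 to 1084). SEMF-like cells were also below the free RNA in all 6 libraries. Glia-like cells held 534, 735 and 714 in the 3 libraries with at least 20 such cells, against 442, 287 and 698 in their free RNA.

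**Figure D2:**
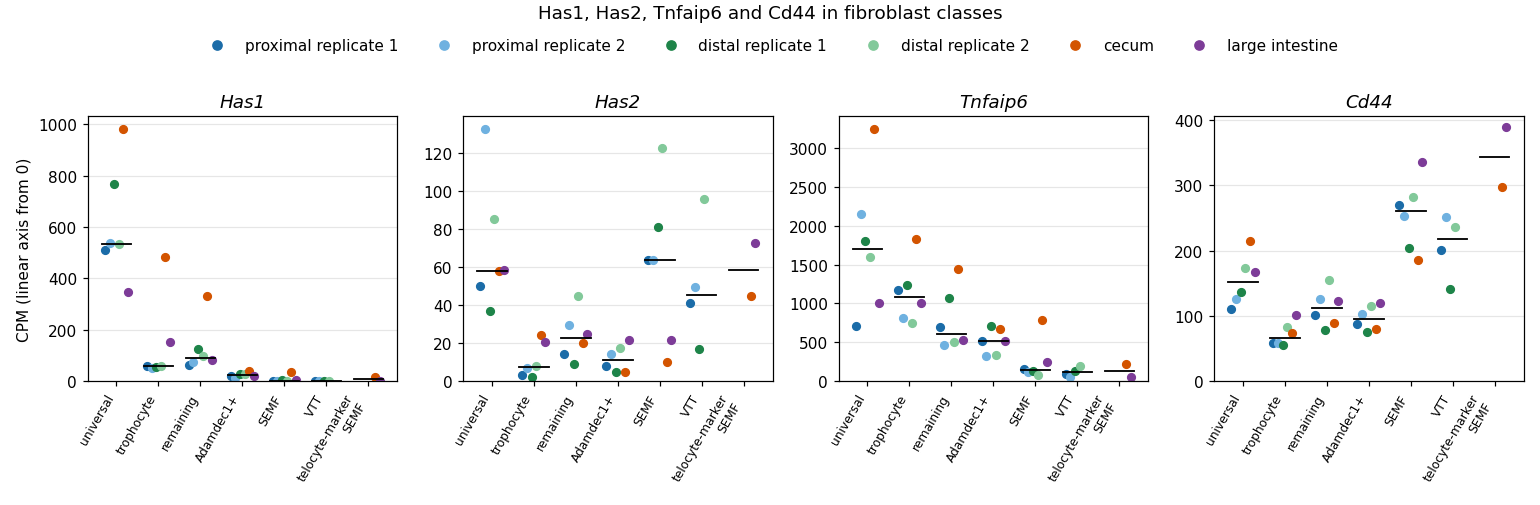
Has1, Has2, Tnfaip6 and Cd44 in the fibroblast classes (CPM, linear axis from 0, 1 point per library, line at the median). Has1 and Tnfaip6 were lower in SEMF-like than in universal and trophocyte-like cells, and the cecum was the highest library for Has1. By mean over libraries Cd44 was highest in telocyte-marker and SEMF-like cells, though in the cecum universal fibroblast-like cells exceeded SEMF-like cells.

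Of the 3 receptors, Lyve1 and Stab2 were both highest by mean in LEC-like cells, where Cd44 was lowest. Cd44 was highest in myeloid-like cells (640, 671, 744 and 571 CPM in the 4 small intestinal libraries) and next in T cell or ILC-like cells (436, 377, 349 and 358), and these ranges did not overlap. SEMF-like cells held 269, 252, 205, 282, 186 and 335, above universal fibroblast-like cells (111, 126, 137, 174, 214 and 167) in every library but the cecum, and above trophocyte-like cells (59.0, 59.1, 55.7, 82.4, 73.5 and 102) in each. Telocyte-marker SEMF-like cells held 297 (cecum) and 389 (large intestine), more than the other SEMF-like cells of the same library. LEC-like cells held 3.27 to 21.3, less than a blood endothelial-like level of 25.3 to 57.3 and less than the free RNA (77.9 to 223). Blood endothelial-like and trophocyte-like cells were also below the free RNA of their library wherever they were measured, and SEMF-like cells were above it in all 6 libraries. After thinning, 33.1 to 51.5% of SEMF-like cells had a Cd44 UMI against 11.4 to 20.1% of trophocyte-like and 0.907 to 2.60% of LEC-like cells.

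Lyve1 and Stab2 were LEC-like genes. Lyve1 held 2306, 2362, 2567, 2484, 3802 and 3626 CPM in LEC-like cells, and 96.9 to 99.1% of them had a UMI after thinning. Both large bowel libraries were above all 4 small intestinal libraries. Stab2, a scavenger receptor known from liver and lymph node sinusoids, held 148, 164, 131, 115, 80.4 and 31.1, with the large bowel below the small intestine. A Stab2 UMI was found in only 2.34 to 23.0% of LEC-like cells after thinning, and in 8.20 to 38.2% without it. Fibroblast-like cells held 1.25 to 21.9 of Lyve1 and 0.357 to 1.54 of Stab2, in each library below the free RNA (48.8 to 563 for Lyve1 and 1.41 to 39.2 for Stab2), so that no expression by fibroblasts can be read from these counts. Free RNA of Lyve1 was highest in proximal replicate 2 and distal replicate 2, the libraries with the most LEC-like cells (5171 and 5617), and so was the fibroblast-like level (11.9 and 21.9).

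Which class carried more of each member was tested on UMIs summed per library and class with edgeR's quasi-likelihood test, library as a block, and adjustment over all genes tested. Between LEC-like and fibroblast-like cells 67.2% of 17707 genes differed (31.3% higher and 35.9% lower), so a call is the rule here. Lyve1 (log2 fold change 9.09 ± 0.80, SE, adjusted p = 1.64e-05), Stab2 (6.98 ± 0.21, adjusted p = 5.73e-08), Has3 (3.89 ± 0.28, adjusted p = 4.63e-06) and Hyal2 (3.00 ± 0.13, adjusted p = 2.21e-07) were higher in LEC-like cells in 6 of 6 libraries. Tnfaip6 (-5.26 ± 0.19, adjusted p = 1.09e-07), Has1 (-4.65 ± 0.18, adjusted p = 1.6e-07), Has2 (-4.17 ± 0.15, adjusted p = 1.04e-07) and Cd44 (-3.83 ± 0.13, adjusted p = 8.86e-08) were lower. The synthases Has1 and Has2 and the hyaluronan-binding Tnfaip6 thus lay on the fibroblast side of this contrast, and Has3, Hyal2 and both endothelial receptors on the LEC-like side. Blood endothelial-like cells, which were not part of it, held more Has3 by mean than LEC-like cells (20.5 against 9.80 CPM). Their Hyal2 range overlapped that of LEC-like cells. Hyal1 (-0.54 ± 0.24, adjusted p = 0.0729) and Cemip (-0.52 ± 0.40, adjusted p = 0.279) did not pass, though Hyal1 did under 6 alternatives, DESeq2 (-0.60, adjusted p = 0.0352) and limma-voom (-0.60, adjusted p = 0.0253) among them. On the lower side of most of these differences, counts may come partly or wholly from free RNA. LEC-like cells lay under the free RNA for Has1, Has2, Tnfaip6 and Cd44, and fibroblast-like cells for Lyve1, Stab2, Has3 and, in 5 of 6 libraries, Hyal2. The sizes moved with this background: with 10% of each sum subtracted along the free RNA, they were -14.6 for Has1, -7.46 for Has2, -18.1 for Tnfaip6, -15.5 for Cd44, 20.2 for Lyve1, 9.95 for Stab2, 4.48 for Has3 and 3.29 for Hyal2. Where the amount subtracted exceeded a count, no count was left. The largest of these sizes therefore come from emptied or nearly emptied sums and do not measure a difference. Has3 and Hyal2 moved least.

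The precursor genes, 7 genes from Ugp2 and Ugdh (UDP-glucuronic acid) to Gfpt1, Gfpt2, Gnpnat1, Pgm3 and Uap1 (UDP-N-acetylglucosamine), were all lower in LEC-like than in fibroblast-like cells, with a median log2 fold change of -1.37 against -0.05 over all genes. In all, 25 of the 32 other pathway genes were tested, of which 7 were higher and 14 lower (31.3% and 35.9% of all genes). Higher were Stab1 (7.63), a paralog of Stab2, the hyaluronidase gene Cemip2 (4.95), the pentraxin gene Ptx3 (3.81) and the receptor gene Layn (2.12), and the lowest were versican (Vcan, -4.76), Tlr4 (-3.91), the heavy chain gene Itih2 (-3.09) and Gfpt2 (-2.88).

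SEMF-like and trophocyte-like cells of the small intestine, the subepithelial and the crypt-associated fibroblasts that the study contrasts, carried different synthases. Here 58.3% of 15795 genes differed (27.9% higher and 30.4% lower). Has1 was lower in SEMF-like cells (-5.23 ± 0.20, adjusted p = 1.35e-06) and Has2 was higher (3.79 ± 0.24, adjusted p = 1.46e-05), both in 4 of 4 libraries. Tnfaip6 was lower (-3.28 ± 0.09, adjusted p = 5e-07) and Cd44 higher (1.73 ± 0.07, adjusted p = 2.41e-06). The lower class lay under the free RNA level for each of these 4 genes. With free RNA subtracted the differences were -13.5 (Has1), 4.10 (Has2), -3.90 (Tnfaip6) and 1.86 (Cd44). The Has1 value comes from SEMF-like sums emptied by the subtraction and does not measure a difference, while those of Has2, Tnfaip6 and Cd44 moved little. Hyal1 passed narrowly (-0.69 ± 0.23, adjusted p = 0.0384), and the call was lost when proximal replicate 1 (-0.47, adjusted p = 0.126), proximal replicate 2 (-0.83, adjusted p = 0.052) or distal replicate 2 (-0.60, adjusted p = 0.117) was left out, with free RNA subtracted (-0.75, adjusted p = 0.0509) and without the library block (-0.66, adjusted p = 0.0551). Lyve1 (-0.71 ± 0.11, adjusted p = 0.00118) and Stab2 (-2.33 ± 0.41, adjusted p = 0.00219) were lower at levels under the free RNA, and the Lyve1 call was lost with a stricter marker gate (-0.28, adjusted p = 0.13) and without the library block (-0.62, adjusted p = 0.427). Hyal2 (-0.17 ± 0.12) and Has3 (-0.08 ± 0.34) did not pass, and Cemip was too low to be tested.

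Of the precursor genes, 6 of 7 were lower in SEMF-like cells (median -1.48 against -0.01 over all genes), with Gfpt2 at -4.76 (9.01 to 20.0 CPM in SEMF-like and 282 to 313 in trophocyte-like cells of the small intestine) and Pgm3 at -1.72. Over the whole pathway list 3 of 23 genes were higher, namely the receptor gene Hmmr (5.98), which dividing cells also express, Cemip2 (1.54) and Itih5 (0.88), and 13 were lower, among them the link protein gene Hapln1 (-3.65) and Itih2 (-2.53). Of all genes, 27.9% were higher and 30.4% lower. All 10 immediate early genes were lower in SEMF-like cells as well (summed level 714 to 1651 CPM against 9227 to 12311 in trophocyte-like cells of the small intestine). Their part in the differences of Has1 and Tnfaip6 was not tested.

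Universal fibroblast-like cells exceeded the other fibroblast-like cells in both fibroblast synthases. The test had 5 libraries, without proximal replicate 1, and 23.7% of 16516 genes differed (11.2% higher and 12.5% lower). Has1 (3.28 ± 0.20, adjusted p = 7.91e-06), Has2 (1.84 ± 0.26, adjusted p = 0.000813) and Tnfaip6 (1.62 ± 0.16, adjusted p = 8.6e-05) were higher, and Cemip was lower (-3.90 ± 0.45, adjusted p = 0.000232) on very few UMIs, a call that was lost with limma-voom (-1.76, adjusted p = 0.13) and without the library block (-3.29, adjusted p = 0.173). Cd44 missed the threshold (0.52 ± 0.19, adjusted p = 0.0787) and passed it without the large intestine (0.73, adjusted p = 0.00359) or with a looser marker gate (0.48, adjusted p = 0.0419). Precursor genes rose with the synthases in 6 of 7 cases, with Gfpt2 at 2.98, Uap1 at 2.83 and Ugdh at 2.79 (list median 1.07 against -0.05 over all genes). Over the pathway list 10 of 24 genes were higher, Ptx3 most (4.37), and none lower by edgeR. Gfpt2 reached 1275 to 2172 CPM in universal fibroblast-like cells. All 10 immediate early genes were higher too, and their part was not tested.

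Between VTT-like and SEMF-like cells few members could be tested. Of all genes, 10.4% of the 12904 tested differed (6.22% higher and 4.21% lower), in 3 libraries. Of 6 members tested, Has2 alone passed and narrowly (-0.43 ± 0.12, adjusted p = 0.0388), and the call was lost under 9 of 13 alternatives. These were the omission of any one library (adjusted p 0.0877 to 0.17), limma-voom (0.0561), DESeq2 (0.32), free RNA subtracted (0.0651), a looser (0.151) or stricter marker gate (0.15) and no library block (0.598). Cd44 was at -0.23 ± 0.10 (adjusted p = 0.248) and Tnfaip6 at -0.16 ± 0.30 (adjusted p = 0.874), which passed without distal replicate 2 (-0.88, adjusted p = 1.91e-05). Of 20 pathway genes tested, Ptx3 was higher (3.57) and Itih5 (-1.48) and Layn (-0.76) lower.

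Lymphatic and blood endothelial-like cells differed in their receptors but not detectably in Hyal2. Of 11451 genes 55.3% differed, in 5 libraries (26.7% higher and 28.6% lower). Lyve1 (7.35 ± 0.40, adjusted p = 6.11e-07) and Stab2 (7.10 ± 0.29, adjusted p = 1.07e-07) were higher in LEC-like cells. Blood endothelial-like cells held 3.23 to 38.8 CPM of Lyve1, under the free RNA in each library, and 0.00 to 2.63 of Stab2 on 8 UMIs, so the sizes rest on background counts. With free RNA subtracted they came to 17.7 and 13.4, values from emptied or nearly emptied sums that do not measure a difference. Cd44 (-2.59 ± 0.35, adjusted p = 0.00022) and Has3 (-1.43 ± 0.26, adjusted p = 0.00149) were lower, Cd44 at levels under the free RNA in both classes. Hyal2 (0.14 ± 0.14, adjusted p = 0.42) and Tnfaip6 (0.18 ± 0.22, adjusted p = 0.513) did not pass. Over the pathway list 9 of 18 genes were higher (Ptx3 5.33, Stab1 3.20, Gfpt2 2.62 and Itih5 2.60 the most) and 4 lower (Tlr4 -3.11, Uap1 -1.49, Vcan -0.98 and Gusb -0.74).

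**Figure D3:**
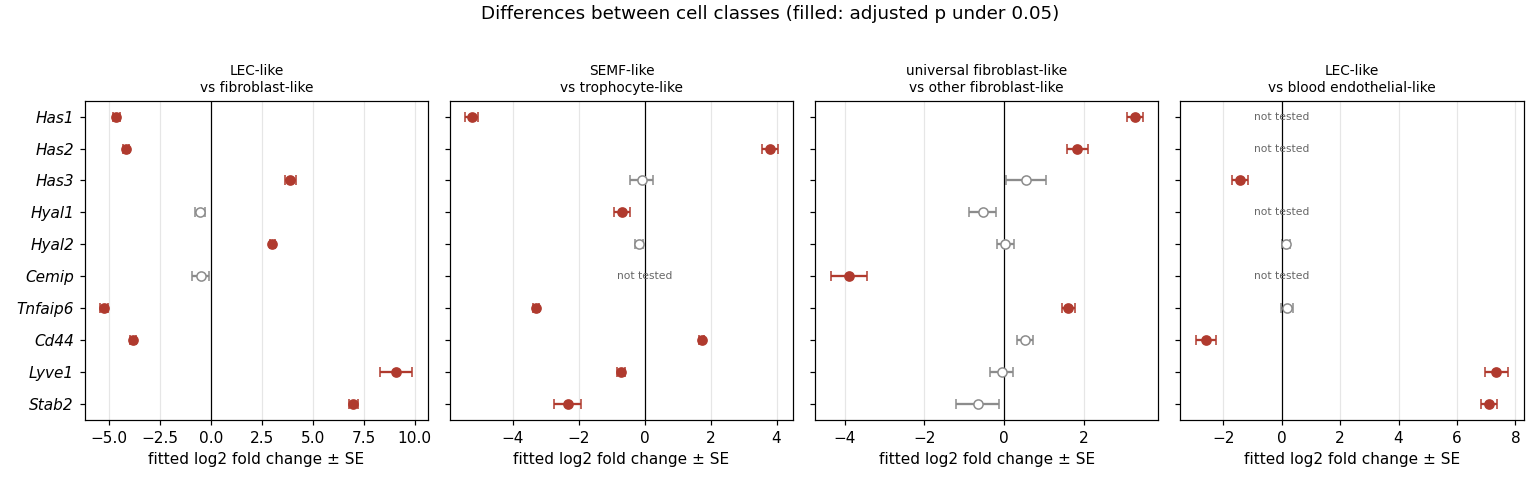
Fitted log2 fold change ± SE of each hyaluronan gene between cell classes (filled symbols: adjusted p under 0.05 over all genes). Has1 was lower in SEMF-like than in trophocyte-like cells (-5.23) where Has2 was higher (3.79), and both were higher in universal than in other fibroblast-like cells.

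The proximal and distal small intestine did not differ detectably in any member by edgeR's test as planned. In fibroblast-like cells 1 of 19248 genes passed (0.00520%), with 660 at an unadjusted p under 0.05, and in LEC-like cells none of 15446 passed edgeR's test (0.00%), with 467 at an unadjusted p under 0.05. With 2 libraries a side, members' fitted differences ranged from -0.24 (Has3) to 0.41 (Has1) in fibroblast-like cells and from -0.36 (Stab2) to 1.17 (Has2) in LEC-like cells. For example, Has1 in fibroblast-like cells was at 50.7 and 49.2 proximally and at 70.2 and 58.6 CPM distally, and Tnfaip6 at 850 and 573 against 1014 and 504. Tnfaip6 of LEC-like cells (0.89 ± 0.38, adjusted p = 1.00) was called higher distally with the replicate number as a block (0.93, adjusted p = 0.0085), without a filter on low counts (0.87, adjusted p = 0.000842) and without proximal replicate 1 (1.39, adjusted p = 0.00225), at 16.8 and 8.79 against 32.3 and 17.0 CPM, all far below the free RNA.

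The large bowel, with 1 cecal and 1 large intestinal library against the 4 small intestinal ones, differed from the small intestine in fibroblast-like cells at 30.0% of 19656 genes (15.9% higher and 14.1% lower). Cemip was higher (3.87 ± 0.57, adjusted p = 0.00533), with 0.415 to 0.477 CPM in the small intestine, 1.88 in the cecal and 11.4 in the large intestinal library, and it did not pass when only the 4 libraries with the same hashtags were used (3.85, adjusted p = 0.0515). A Cemip UMI was found in only 429 of 68035 fibroblast-like cells (0.164 to 2.63% per library), with up to 108 in a cell. Cd44 was higher (0.89 ± 0.24, adjusted p = 0.0313), at 72.5 to 133 in the small intestine, 132 in the cecal and 226 in the large intestinal library. The cecum thus overlapped the small intestine, and the call was lost without the large intestine (0.52, adjusted p = 0.168), proximal replicate 1 (0.87, adjusted p = 0.076) or proximal replicate 2 (0.89, adjusted p = 0.0716) and among the libraries with the same hashtags (1.11, adjusted p = 0.0623). Has2 (0.82 ± 0.49, adjusted p = 0.234), Hyal2 (0.50 ± 0.18, adjusted p = 0.0763) and Tnfaip6 (0.46 ± 0.54, adjusted p = 0.542) did not pass, the last turning to -0.85 without the cecum. Has2 did pass among the libraries with the same hashtags (1.67, adjusted p = 0.0318), and Hyal2 with DESeq2 (0.51, adjusted p = 0.0403).

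Has1 in fibroblast-like cells was higher in the large bowel (1.93 ± 0.59, adjusted p = 0.045), a call that rested on the cecum. The levels were 49.2 to 70.2 CPM in the small intestine, 354 in the cecal and 57.9 in the large intestinal library, and without the cecum the fitted difference was 0.03 (adjusted p = 0.948). The call was also lost without proximal replicate 1 (adjusted p = 0.102), proximal replicate 2 (0.102), distal replicate 1 (0.0611) or distal replicate 2 (0.0922), with limma-voom, the study's method between tissues (1.43, adjusted p = 0.128), with free RNA subtracted (1.88, adjusted p = 0.0532) and among the libraries with the same hashtags (1.79, adjusted p = 0.201). Lyve1 (-2.70 ± 0.71, adjusted p = 0.0298) and Stab2 (-1.40 ± 0.38, adjusted p = 0.0327) were lower at levels under the free RNA, in libraries with fewer LEC-like cells (231 and 256 against 742 to 5617), and each lost its call without the cecum (adjusted p = 0.134 and 0.072) or the large intestine (0.0844 and 0.131), with limma-voom (0.0835 and 0.0512) and among the libraries with the same hashtags (0.0674 and 0.161). Without proximal replicate 2 both calls were lost as well (0.0615 and 0.0773), and that of Stab2 without proximal replicate 1 (0.0664) or distal replicate 2 (0.0664).

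Because the fibroblast make-up differed, the same contrast was fitted within narrower groups of fibroblast-like cells, a step added after the data had been seen. Within SEMF-like cells, VTT-like and telocyte-marker cells included, 36.3% of genes differed, and Has1 (3.36 ± 0.85, adjusted p = 0.0196), Cemip (3.35 ± 0.76, adjusted p = 0.0137), Tnfaip6 (1.87 ± 0.50, adjusted p = 0.0238) and Hyal2 (0.90 ± 0.20, adjusted p = 0.0135) were higher in the large bowel, while Has2 did not pass (-1.02 ± 0.42, adjusted p = 0.0944). Telocyte-marker cells were 523 of these 1967 cells in the cecum and 2083 of 3779 in the large intestine. VTT-like cells were 90 of 877, 129 of 1049, 35 of 481 and 80 of 1177 in the small intestine, so the make-up still differed. In SEMF-like cells without them, Has2 lay lower in both large bowel libraries, as given above. Has1 and Tnfaip6 were far higher there in the cecum (35.6 and 792 CPM) than in any other library, the large intestine included. Both genes lay under the free RNA in SEMF-like cells of every library. No library was left out of these fits, so their dependence on the cecum was not tested. Lyve1 was lower within SEMF-like cells (-2.12 ± 0.69, adjusted p = 0.0452) and within Adamdec1+ fibroblasts (-3.58 ± 0.92, adjusted p = 0.0306), at levels under the free RNA. Within trophocyte-like cells 8.65% differed, and both Has1 (2.57 ± 0.35, adjusted p = 0.00587) and Has2 (2.20 ± 0.45, adjusted p = 0.024) were higher. The large bowel side was made up mostly of cells near the limit of the gate, 149 of 173 in the cecum and 238 of 318 in the large intestine, against 2518 of 4864, 1924 of 3983, 3815 of 6103 and 1919 of 3075 in the small intestinal libraries. Within universal fibroblast-like cells 0.433% differed and no member passed (Has1 0.22 ± 0.45, adjusted p = 0.849, and Has2 -0.50 ± 0.39, adjusted p = 0.571). Within Adamdec1+ fibroblasts 23.6% differed, and Cemip was higher (3.34 ± 0.63, adjusted p = 0.0119), with a UMI in 31 of 13824 cells. Cd44 passed in none of the 4 classes (0.11 to 0.54), and Has2 was at 2.20 in one class and at -1.02 in another, a difference between classes that was not tested. The immediate early genes of SEMF-like cells were also higher in the large bowel (12364 and 7492 against 714 to 1651 CPM), and their part was not tested.

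**Figure D4:**
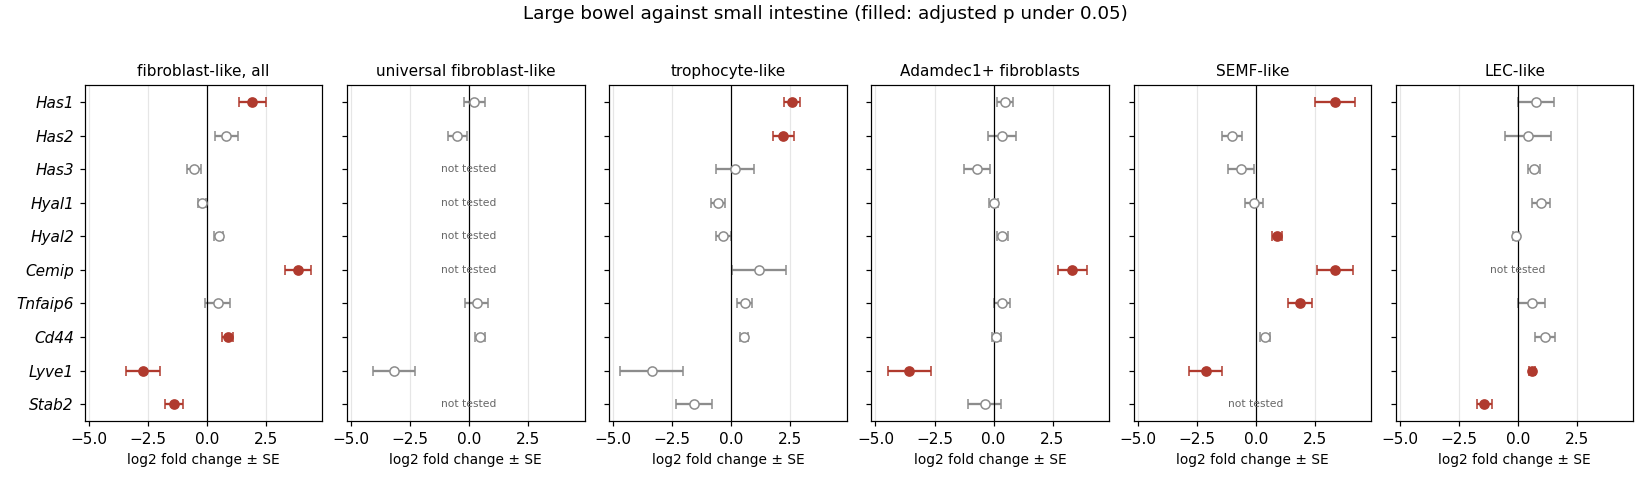
Fitted log2 fold change ± SE between large bowel and small intestine for each hyaluronan gene, over all fibroblast-like cells, within 4 fibroblast classes and in LEC-like cells (filled symbols: adjusted p under 0.05). Cemip was higher over all fibroblast-like cells (3.87) and within SEMF-like cells (3.35) and Adamdec1+ fibroblasts (3.34), and Lyve1 and Stab2 of LEC-like cells moved in opposite directions.

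Cells with a single called hashtag gave a look inside the cecal and large intestinal libraries. Fibroblast-like cells of the 3 cecal hashtags held 442, 364 and 234 CPM of Has1, against 20.7 to 73.1 in the 15 sums of the other libraries, and 1605, 1580 and 1285 of Tnfaip6 against 335 to 1062. The high cecal level was therefore present under each hashtag. Immediate early genes were high under the same hashtags (20368 to 24341 against 4273 to 8837), and their part was not tested. Gfpt2 (807 CPM in cecal fibroblast-like cells and 221 to 263 elsewhere) and Ugdh (558 and 97.5 to 174) stood high in the cecum too. Cemip of fibroblast-like cells varied between the large intestinal hashtags (18.2, 13.7 and 3.51), each above the cecal (1.13 to 2.83) and small intestinal sums (0.16 to 1.35). Has2 of SEMF-like cells was at 3.53, 5.06 and 18.2 under the cecal and at 18.9 to 26.6 under the large intestinal hashtags, below all small intestinal sums (48.9 to 138). Fibroblast-like cells with no called hashtag, 16.3 to 40.7% of that class in the small intestinal libraries, 6.93% of it (cecum) and 3.24% (large intestine), held more Has1 than those with one (77.0, 83.7, 112, 76.7, 618 and 184 CPM) and were again highest in the cecum. Their immediate early level was 7823 to 30317 CPM. Hashtags of a library share its preparation and, without a pairing with mice, were not counted as replicates.

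**Figure D5:**
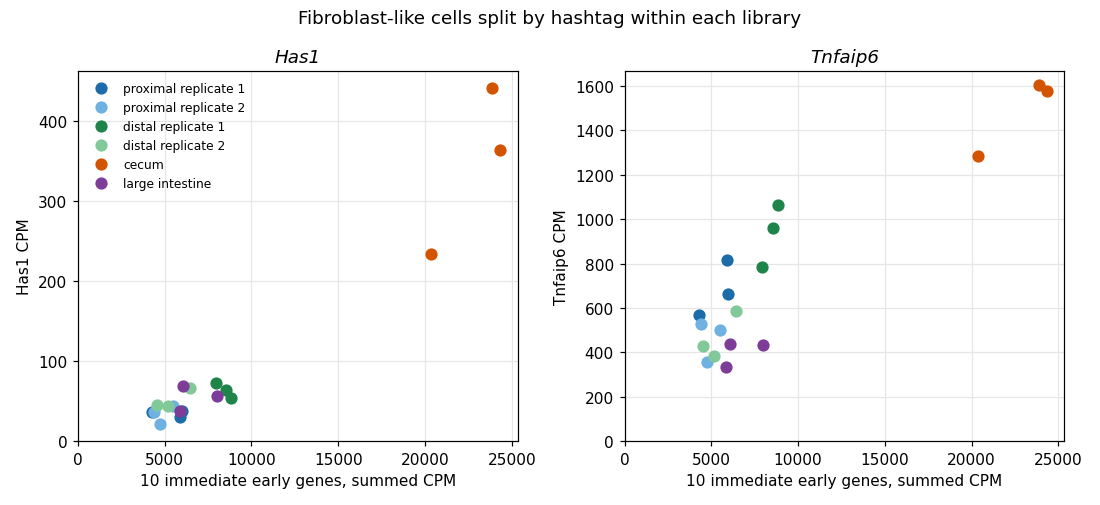
Has1 (left) and Tnfaip6 (right) against the summed level of 10 immediate early genes in fibroblast-like cells, all in CPM, with 1 point per hashtag and library. The 3 cecal points lie apart at 20368 to 24341 on the horizontal axis and at 234 to 442 for Has1, while the other 15 points reach at most 73.1.

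LEC-like cells of the large bowel had more Lyve1 and less Stab2. Of 14041 genes 20.4% differed (9.53% higher and 10.9% lower). Lyve1 was higher (0.59 ± 0.14, adjusted p = 0.0178) and Stab2 lower (-1.43 ± 0.33, adjusted p = 0.0153), in 2 of 2 large bowel libraries each. Under single hashtags Lyve1 was at 3747 to 3837 CPM (cecum) and 2840 to 4657 (large intestine) against 2196 to 2669 in the small intestine, and Stab2 at 50.2 to 87.9 and 28.2 to 34.7 against 69.6 to 189. The Lyve1 call was lost without proximal replicate 1 (0.58, adjusted p = 0.0653), the cecum (0.49, adjusted p = 0.112) or the large intestine (0.59, adjusted p = 0.0757), without a filter on low counts (0.53, adjusted p = 0.0701) and among libraries with the same hashtags (0.62, adjusted p = 0.0864), and the Stab2 call without the large intestine (-0.86, adjusted p = 0.0743). The large bowel sums rest on 231 and 256 cells. Cd44 (1.16 ± 0.42, adjusted p = 0.0785), Has3 (0.68 ± 0.24, adjusted p = 0.0703) and Hyal2 (-0.08 ± 0.14, adjusted p = 0.714) did not pass. Cd44, at levels under the free RNA, passed under 5 alternatives, namely DESeq2 (1.17, adjusted p = 0.0411), no filter on low counts (1.09, adjusted p = 0.00899), the stricter marker gate (1.40, adjusted p = 0.0329), libraries with the same hashtags (adjusted p = 0.0343) and the omission of distal replicate 2 (1.42, adjusted p = 0.0442). Has1, also under the free RNA, passed with a looser gate (2.55, adjusted p = 0.0168). Of 22 pathway genes tested, the heavy chain gene Itih3 was higher (2.49) and 5 were lower, with Gfpt2 (-2.26), Itih5 (-1.07), Gfpt1 (-0.61) and Stab1 (-0.58) changed most.

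In fibroblast-like cells 5 of 25 pathway genes were higher in the large bowel, with Ptx3 (2.17), Hapln1 (1.82), Ugdh (1.74) and Hmmr (1.43) changed most, and Stab1 (-3.67) and Hyal3 (-1.15) were lower. Of all genes tested there, 15.9% were higher and 14.1% lower, so the list was not far from that share. Whether the large bowel differed alike in both classes was tested as an interaction, which 9.63% of 19837 genes passed (3.53% higher and 6.10% lower, median over all genes -0.12). Gfpt2 did so with the largest size among the pathway genes (-3.30, adjusted p = 0.000107), at 50.2 to 60.6 CPM in LEC-like cells of the small intestine and 17.3 and 7.55 in those of the cecum and large intestine. Among the members Lyve1 (3.01 ± 0.64, adjusted p = 0.0233) and Hyal2 (-0.64 ± 0.13, adjusted p = 0.0204) passed. Neither did so without the cecum (2.73, adjusted p = 0.14, and -0.68, adjusted p = 0.0669) or the large intestine (3.34, adjusted p = 0.109, and -0.56, adjusted p = 0.159), and Hyal2 did not without proximal replicate 2 (-0.65, adjusted p = 0.0502) or with free RNA subtracted (-0.96, adjusted p = 0.0777). With limma-voom neither passed (3.08, adjusted p = 0.0862, and -0.65, adjusted p = 0.0567). Cemip (-2.08 ± 0.59, adjusted p = 0.0639) passed with limma-voom (-2.08, adjusted p = 0.042), DESeq2 (-2.08, adjusted p = 0.0414), no filter (-2.18, adjusted p = 0.0448) and cells of several hashtags kept (-2.51, adjusted p = 0.023), and with DESeq2 Has3 (1.29, adjusted p = 0.0246) and Hyal1 (1.21, adjusted p = 0.0472) passed too. The Lyve1 difference came to 0.52 and did not pass once 10% of each sum was subtracted along the free RNA. That step left few or no fibroblast-like Lyve1 counts, so this alternative could not test the interaction.

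Across the 76 sums per library and class, of 16 classes, the genes with patterns most like each member were read as a description among 15850 genes. Has1 was most like Pcolce2 (Pearson's r 0.913 on log2 levels), Pi16 (0.9004) and 4930404H11Rik (0.898), of which Pi16 was a gate marker. Has2 was most like its antisense neighbour Has2os (0.858), then Efemp1 (0.857) and Vcan (0.820). Tnfaip6 was most like Gsn (0.926), Olfml1 (0.917) and Meg3 (0.917). Has3 was most like the endothelial genes Gata2 (0.912), Robo4 (0.908) and Sox18 (0.899), and Hyal2 like Ephb4 (0.875), Shroom2 (0.860) and Dock9 (0.851). Lyve1 was most like Ccl21a (0.927), Prox1 (0.920) and Mmrn1 (0.916), all 3 gate markers of the LEC-like class, whereas Stab2 was most like Zmat4 (0.871), Prkcq (0.858) and Dtx1 (0.852). Cd44 was most like Plekha2 (0.761), Dock10 (0.757) and Pitpnm1 (0.747), and the partners of Cemip were Gm8773 (0.820), Dnai1 (0.796) and Prpsap1 (0.765). Sums of a library share its depth and free RNA.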

How the data were processed

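The deposited matrices hold raw counts (whole UMIs per gene and barcode, not normalized) of droplet libraries (Chromium 3′ v3.1). The authors aligned reads to mm39 with tdTomato added and counted UMIs in Cell Ranger (8.1.0 in the submitters' notes and the methods, 8.0.1 in the matrix headers). No doublet, ambient RNA or cell filter had been applied to these counts.

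Here a barcode was kept as a cell when it had 1000 to 7500 genes, 2500 to 40000 UMIs and a mitochondrial share under 10%, and 11412 cells with several hashtags were removed (a hashtag was called at 2.5 robust SDs), so doublets within a hashtag remain. A marker was on in a cell when its UMIs exceeded the 99% quantile of a Poisson count with 5% of the cell's UMIs drawn along its library's free RNA. A lineage needed at least 3 markers on and a lead of 0.25 in the share on, and a fibroblast class at least 4 and 0.2. Gate thresholds were set after the data had been seen. The members, markers, pathway lists and tests were chosen with earlier results of these data known. Named were all members, up to 4 pathway genes per direction with the largest change among those past the threshold, and the 3 genes most like each member; other pathway genes named, and the hashtag values, were chosen after their values were seen. Of the 2 gene IDs for Nrg1 the first was used.

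Levels are CPM, UMIs scaled to 1000000 per class sum, for classes of at least 20 cells. Tests used edgeR 4.0.16 (R 4.3.3; glmQLFTest, filterByExpr with minimum count 10, TMM, Benjamini-Hochberg at 0.05) on sums of at least 50 cells, where the study used limma-voom between tissues and rank tests over cells between types. The SE is the log2 fold change divided by the square root of F. Alternatives were limma 3.58.1 (limma-voom), DESeq2 1.42.0, RLE scaling, no filter, each library left out, free RNA subtracted, other gates and filters, and blocks. The subtraction took 10% of each sum along the free RNA and left no count where this amount was the larger, so low sums could be emptied. Scripts were tested on simulated data, with the same spread for all genes and without free RNA or library effects, so background and differences between libraries were not probed. Replicate numbers of the 2 small intestinal regions go with hashtag sets (replicate 1 with HT0301 to HT0303, replicate 2 with HT0304 to HT0306) and were not shown to be shared mice. Positions are from GENCODE on GRCm39. Python was 3.11.15.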

Additional observations from a re-analysis of the deposited data

Results flagged for a closer look

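Among the 4 small intestinal libraries, each member was checked in each class with at least 20 UMIs for a library whose gap to the nearest other exceeded Dixon's 95% limit for 4 values. Of 91 such groups 6 were past it, where chance gives about 1 in 20. Has1 of universal fibroblast-like cells stood high in distal replicate 1 (769 CPM, others 510 to 538). Cd44 of trophocyte-like cells stood high in distal replicate 2 (82.4, others 55.7 to 59.1). In distal replicate 1, Has3 of Adamdec1+ fibroblasts (0.461, others 0.754 to 0.791) and Cemip of fibroblast-like cells (0.415, others 0.468 to 0.477) stood low, and Tnfaip6 of myeloid-like cells stood high (45.6, others 9.41 to 15.4). These values rest on few UMIs, 16 for Has3, 54 for Cemip and 34 for Tnfaip6, so counting error alone is large. Lyve1 of myeloid-like cells stood high in distal replicate 2 (172, others 12.1 to 28.6), a library of 34 such cells and 55 Lyve1 UMIs in them, with the highest free RNA level of Lyve1 (563).

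The difference between large bowel and small intestine was unlike in LEC-like and fibroblast-like cells for Lyve1 (interaction 3.01) and Hyal2 (-0.64), each by a test of the difference itself. For Lyve1 the fibroblast-like counts entering that test lay below the free RNA in every library, and for Hyal2 in most libraries. Both calls were lost with limma-voom and without the cecum or the large intestine, as given above.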

How the results depend on the processing

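Each of 33 called member results was recomputed under the alternatives named in the methods, 496 values in all: 437 kept direction and side of the threshold, 58 crossed it and 1 turned, and 20 of the 33 results were kept throughout. Of 816 values for 57 results not called, 735 were kept, 26 crossed the threshold and 55 turned. Has1, Has2, Tnfaip6 and Cd44 in SEMF-like against trophocyte-like cells and Lyve1, Stab2, Has3, Hyal2, Has1, Has2, Tnfaip6 and Cd44 in LEC-like against fibroblast-like cells were kept throughout. Where the cause is not plain from the alternative itself, the cause was not tested.

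Counts of called genes moved as follows. Universal against other fibroblast-like cells gave 3913 genes and 1916 without the library block. VTT-like against SEMF-like cells gave 1346, 803 with a stricter gate and 676 without the block. Distal against proximal fibroblast-like cells gave 1 gene, 0 with limma-voom, with 10% free RNA subtracted or with cells of several hashtags kept, 129 with DESeq2, 18 without a filter on low counts and 252 with the replicate number as a block. LEC-like cells there gave 0, 21 with DESeq2, 143 without a filter and 73 with the replicate block. With the replicate block Tnfaip6 of LEC-like cells (0.93, adjusted p = 0.0085) was called higher distally, Lyve1 of fibroblast-like cells turned to -0.0356, and no other member's call changed. The replicate numbers pair only 2 libraries with 2 and are not known to be shared mice. The large bowel contrast gave 5894 genes in fibroblast-like cells, 1494 among libraries that share hashtags (fewer samples), 1508 within trophocyte-like, 43 within universal fibroblast-like cells and 3662 within Adamdec1+ fibroblasts, and in LEC-like cells 2863, and 1546 among libraries that share hashtags. Leaving out 1 library gave 10027 to 12367 genes for LEC-like against fibroblast-like cells, 7813 to 8504 for SEMF-like against trophocyte-like, 2924 to 3486 for universal fibroblast-like, 989 to 1333 for VTT-like, 5094 to 7120 for LEC-like against blood endothelial-like, 4 to 23 (fibroblast-like) and 0 to 70 (LEC-like) for distal against proximal, 3007 to 6495 (fibroblast-like) and 1206 to 3759 (LEC-like) for the large bowel and 680 to 1680 for the interaction.

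Directions turned as follows. Stab2 in fibroblast-like cells of the large bowel was 2.37 with free RNA subtracted, a step that left no Stab2 counts in most small intestinal libraries, so this turn does not measure a difference. Universal against other fibroblast-like cells gave Hyal2 -0.00621 with free RNA subtracted, -0.0512 with cells of several hashtags kept and -0.0487 with a looser gate, and Lyve1 0.26 with a stricter gate. VTT-like against SEMF-like cells gave Hyal1 -0.0209 without a filter and -0.23 with a stricter cell filter, and Tnfaip6 0.14 with a stricter gate. Distal against proximal fibroblast-like cells gave Has2 -0.0103 and Lyve1 -0.14 with limma-voom, Has3 0.041 with free RNA subtracted, Hyal2 0.000105 without a filter, 0.0012 with a looser and 0.00074 with a stricter gate, and Stab2 0.0168 with a looser gate. The large bowel contrast gave Has2 -1.02 within SEMF-like and -0.50 within universal fibroblast-like cells, Has3 0.17 and Hyal2 -0.35 within trophocyte-like cells, Hyal1 0.0122 within Adamdec1+ fibroblasts, and in LEC-like cells Has2 -0.0883 with cells of several hashtags kept. The interaction gave Has1 0.11 with cells of several hashtags kept and 0.79 with a looser gate, Has2 0.43 and Stab2 0.24 with a looser gate, and Tnfaip6 -0.43 and Cd44 -0.81 with free RNA subtracted.

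With 1 library left out, the ranges of results that turned were as follows. Has3 in SEMF-like against trophocyte-like cells ranged from -0.36 to 0.0625. In universal fibroblast-like cells Hyal2 ranged from -0.14 to 0.17 and Lyve1 from -0.29 to 0.0478, and in VTT-like cells Hyal1 from -0.44 to 0.81 and Tnfaip6 from -0.88 to 0.30. In distal against proximal fibroblast-like cells Has2 ranged from -1.02 to 0.99, Hyal2 from -0.23 to 0.18, Cemip from -0.0903 to 0.00067, Tnfaip6 from -0.55 to 0.63, Cd44 from -0.32 to 0.39, Lyve1 from -1.37 to 1.17 and Stab2 from -0.77 to 0.305, and in LEC-like cells Has2 from -0.88 to 1.60, Hyal2 from -0.0642 to 0.20 and Cd44 from -1.02 to 0.53. In the large bowel contrast Tnfaip6 of fibroblast-like cells ranged from -0.85 to 1.13, and in LEC-like cells Has1 from -1.56 to 1.87, Has2 from -0.67 to 0.79 and Tnfaip6 from -0.28 to 1.22. In the interaction Has2 ranged from -0.99 to 0.12, Cd44 from -0.19 to 0.44 and Stab2 from -0.57 to 0.30.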

Other observations

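Stab2 was also found in T cell or ILC-like cells of the small intestine. Their level was 24.2 and 85.8 CPM in the proximal and 14.9 and 73.3 in the distal libraries, second to LEC-like cells, from 103 UMIs in 21 of 315 cells. The free RNA of the same libraries held 17.6 and 39.2 (proximal) and 4.77 and 29.9 (distal), below the cells' level in each but close to it in proximal replicate 1. In proximal replicate 2, 7 cells held 61 UMIs, up to 21 in a cell, and in distal replicate 2, 5 cells held 26, up to 15 in a cell. Lyve1 of the same class was at 4.41, 14.1, 2.99 and 39.5 CPM. The genes most like Stab2 over all sums included Prkcq and Dtx1, known from lymphocytes. Those sums include the same T cell or ILC-like counts, so this likeness is no separate support. The Lyve1 levels are those of the whole class and not of the few cells with Stab2. No test was run on these counts, and their source was not tested. Whether these T cell or ILC-like cells carried the reporter was not tested either.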
